A study of Rattus norvegicus with 23 samples.

Results

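Lung RNA of rats that breathed a high concentration of eucalyptus wood smoke was compared with that of rats that breathed a low concentration. The comparison took every library labelled High Smoke (7) and every library labelled Low Smoke (8), 15 of the 22 libraries with deposited values, and no measured value entered that choice. The labels list 23 samples in 3 treatment groups, and the high smoke rat marked there as dropped had no values and was not analysed here. Male rats were placed whole-body in the smoke for 4 days in week 1, rested for 3 days and were exposed for 3 more days in week 2, at a target carbon monoxide concentration of 10 ppm (low) or 20 ppm (high). The filtered air group (7 libraries) stood outside the fit, and its levels are given only as values beside the smoke groups. RNA came from about 35 mg of frozen lung of 1 rat per library, so p-values measure the spread between rats, and means are given ± SD (n = 7 high smoke, 8 low smoke, 7 air). Rat and library numbers ran in consecutive blocks by group. Any effect of handling order, or of anything else shared within a group, cannot be told apart from treatment here. Strain and age were not given in the sources used here.

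Wood smoke carries carbon monoxide, fine particles, aldehydes and polycyclic aromatic hydrocarbons into the lung. Alveolar macrophages and the epithelium meet these first, and known responses include the aryl hydrocarbon receptor enzymes, the NRF2 antioxidant genes, inflammatory mediators and the presentation of antigens to T cells. A comparison of 2 smoke concentrations asks what the step from the lower to the higher one adds, which a comparison of each with clean air does not measure directly.

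The values are normalized counts, and all differences are high smoke minus low smoke on the log2(value + 1) scale, which understates changes of genes with low values. Depth was 9384725 to 10773295 read equivalents per library in low smoke and 9056275 to 12055527 in high smoke. The tissue label fitted the defining markers: Sftpc, the surfactant protein of alveolar type 2 cells, averaged 106596 ± 26660.5 in high smoke and 80302 ± 19628 in low smoke (SD), while the fat cell marker Plin1 averaged 0.28 and 0.368. A principal component analysis of the 15 libraries set 3 of them apart. High smoke replicates 1, 3 and 7 had first component scores of 47.6, 37.0 and 31.9 (24.6% of variance), against -6.14 to 2.86 for the remaining 4 of their group and -20.2 to -7.47 in low smoke. Differences and medians of gene lists are therefore followed in square brackets by the log2 value without those 3 libraries, from the remaining 4 high smoke and the 8 low smoke rats. The median SD between rats was 0.24 log2 units in high smoke and 0.19 in low smoke, and 0.19 in the other 4 high smoke libraries.

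**Figure D1:**
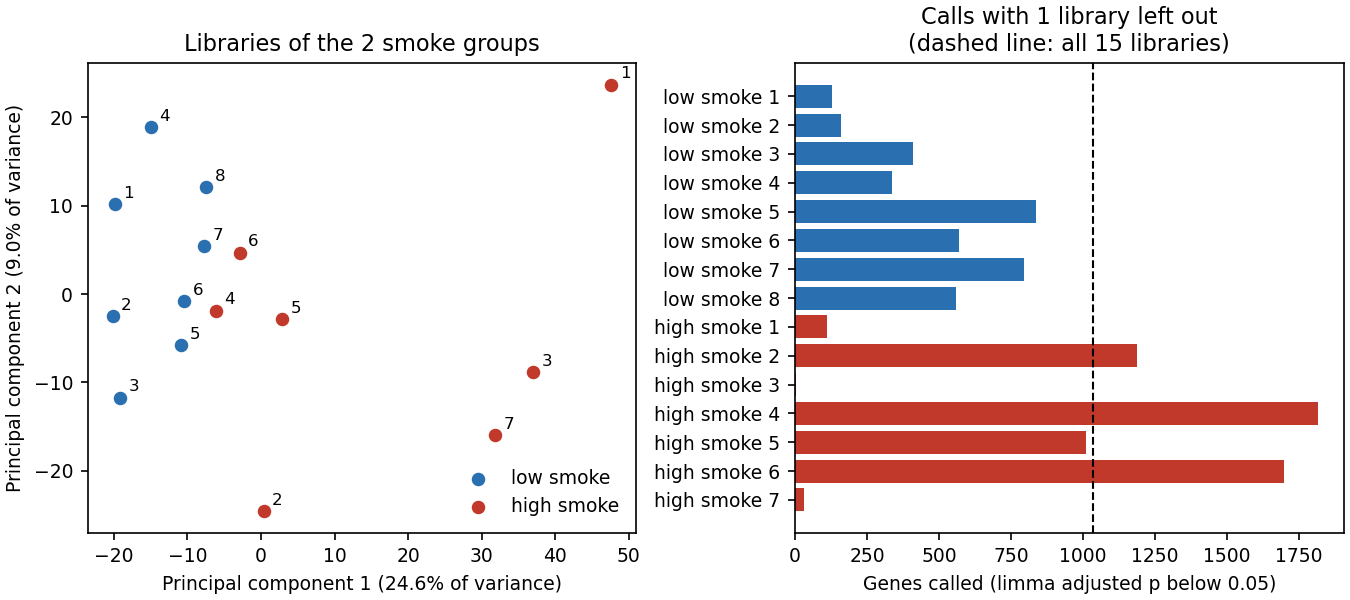
Left, scores of the 15 smoke libraries on the first 2 principal components of log2(value + 1), with replicate numbers beside the points. Right, number of genes called (limma adjusted p below 0.05) when each library is left out in turn, with the 1036 calls of all 15 libraries as a dashed line. High smoke replicates 1, 3 and 7 lie far to the right of all other libraries, and leaving out any of them leaves 112 calls or fewer.

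Genes averaging 10 or more in the 15 libraries were tested, 14398 in all, and 1036 (7.2%) differed between the smoke groups at a limma adjusted p below 0.05. High smoke was higher for 533 genes (3.7%) and lower for 503 (3.49%), and only such genes are said here to have risen or fallen. Most differences were small. The median size of a called difference was 0.40 on the log2 scale, and 41 rises and 3 falls passed 2-fold. All 7 high smoke values lay above all 8 low smoke values for 55 genes (0.382%), and below them for 45 (0.313%). With every library scaled to the same total instead, 386 genes were higher and 591 lower.

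The number of calls rested on few libraries. Without high smoke replicates 1, 3 and 7, an alternative added after the data were seen, 0 genes were called by limma, 1276 of 14387 had an unadjusted p below 0.05, and the median size of the differences called above was 0.25 in place of 0.40. Without high smoke replicate 3 alone, 2 genes were called, Rplp1 and LOC100363469 (an unnamed locus, chosen after its values were seen). Without high smoke replicate 7 alone 30 were called, without high smoke replicate 1 112, without low smoke replicate 1 127 and without low smoke replicate 2 160. Leaving out low smoke replicate 3, 4, 6 or 8 gave 411, 336, 568 and 559. Conversely, 1814 genes were called without high smoke replicate 4 and 1699 without high smoke replicate 6. Genes with an unadjusted limma p below 0.05 varied less in number. There were 3790 (26.3%) with all 15 libraries, and 2990, 3091 and 3123 without high smoke replicate 1, 3 or 7 alone. All 1031 called genes that could still be fitted without the 3 libraries kept their direction. They were called from libraries that this fit shares, so a kept direction is no separate support. Every call named below other than Rplp1 was lost when high smoke replicate 3 was left out.

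Rplp1, an acidic protein of the ribosomal stalk, was the gene with the smallest p. Its values ran from 3080.1 to 3541 (median 3338) in low smoke and from 4002 to 5247 (median 4858) in high smoke. All 7 high smoke rats lay above all 8 low smoke rats, and air averaged 3219 ± 517 (SD, n = 7). The rise was 1.41-fold (log2 difference 0.49 [0.43], SE 0.06, limma adjusted p = 0.00539). It passed the threshold in each of the 15 fits that left out 1 library. Over all 29 alternatives the adjusted p of Rplp1 in limma or the rank-sum test ran from 0.0013 to 0.225, the last in the fit without those 3 libraries.

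Genomic span moved with the calls. Among protein-coding genes the median span was 8.72 kb for those that rose, 63.6 kb for those that fell and 22.0 kb for those not called. Split into 4 equal classes by span, 7.13% of the shortest class rose and 1.09% fell, and 1.2% of the longest class rose and 7.8% fell. Spearman's correlation between span and log2 difference across genes, which are not independent replicates, was -0.25, and also -0.25 without high smoke replicates 1, 3 and 7. With a straight line along log10 span removed from each library, an alternative added after the data were seen, 327 genes were higher and 243 lower. Of the 103 called genes reported by name, 66 passed the test with this trend removed and 0 changed sign, and the size of the difference was 0.626 to 1.18 times that before removal (median 0.924). Rps4x and Lama4 moved by over 1.5 times, from 0.34 to 0.22 and from -0.23 to -0.15. The 37 that no longer passed, with limma adjusted p from 0.0508 to 0.191, were Cd74, Cd79b, Cntn1, Col6a6, Ctsh, Ctss, Gpr158, Gpx4, Hba-a2, Higd1b, Hopx, Ifi27, Ifit1bl, Isg15, Itga2, Lama4, Mdh2, Mob3b, Ndufa2, Npnt, Pnp, Psat1, Psmd10, Psme1, Rgs5, Rsad2, RT1-Da, RT1-Db1, Sesn2, Snord66, Tagln, Tapbp, Tjp1, Trem2, Usp18, Wwtr1 and Zmat3.

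**Figure D2:**
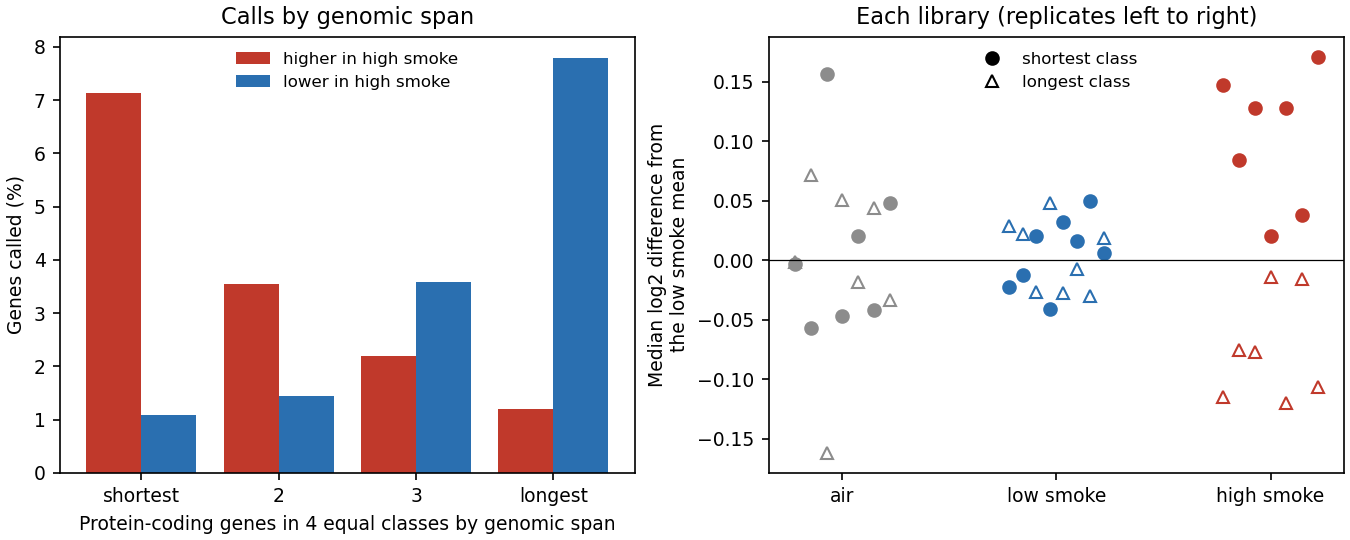
Left, percentage of protein-coding genes called higher or lower in high smoke, in 4 equal classes of genomic span. Right, each library's median log2 difference from the low smoke mean over the shortest and the longest class. The shortest genes lie above the longest in all 7 high smoke libraries, while the order varies among low smoke and air libraries.

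Members of both branches of antigen presentation rose. Class II molecules, which show peptides from swallowed material to helper T cells, and the machinery that loads them had 6 of 13 tested members higher and 0 lower, with a median of 0.37 against 0.00 over all genes. The class I list, whose products show peptides from inside the cell, had 6 of 19 higher and 0 lower with a median of 0.27. Without high smoke replicates 1, 3 and 7 these medians were 0.16 and 0.24.

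RT1-DMb (rn6 chromosome 20, 3945601 to 3952847), a chain of the molecule that exchanges peptides on class II, ran from 80.4 to 144 (median 106) in low smoke and from 143 to 271 (median 176) in high smoke, and averaged 95.8 ± 18.7 in air. In 6 of 7 high smoke rats it exceeded every low smoke rat. The rise was 1.80-fold (log2 difference 0.84 [0.54], SE 0.16, limma adjusted p = 0.0193). RT1-Bb, the beta chain of a classical class II molecule, ran from 533 to 675 (median 648) in low smoke and from 677 to 1079 (median 863) in high smoke, with no overlap (log2 difference 0.48 [0.29], limma adjusted p = 0.0215). Cd74, the invariant chain that guards the class II groove, averaged 21973 ± 3621 in high smoke and 16722 ± 2175 in low smoke (SD), a log2 difference of 0.39 [0.22] with 5 of 7 high smoke rats above the low smoke range. Ctss, the cathepsin that cuts the invariant chain away, rose by 0.39 [0.17]. RT1-Da and RT1-Db1, both outside the naming rule and chosen after their values were seen, rose by 0.42 [0.13] and 0.30 [0.25]. RT1 genes have near-identical relatives between which the authors' counting could divide reads, so single RT1 values are uncertain.

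Of the class I list, Tap2, a subunit of the pump that carries peptides into the endoplasmic reticulum, ran from 511 to 742 (median 655) in low smoke and from 753 to 811 (median 783) in high smoke. The groups did not overlap although the step was small (log2 difference 0.27 [0.26], limma adjusted p = 0.0319). B2m, the light chain of every class I molecule, averaged 29943 ± 8167 in high smoke, 20315 ± 2207 in low smoke and 21339.7 ± 2457 in air (SD), with 4 of 7 high smoke rats above the low smoke range. Its log2 difference was 0.52 [0.23]. RT1-A2, a class I heavy chain, rose by 0.41 [0.33], Psme1, a proteasome activator subunit, by 0.36 [0.21], and Tapbp, which bridges class I and the peptide pump and lies outside the naming rule, by 0.26 [0.27].

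Interferon response genes had 6 of 34 members higher and 0 lower, and 30 of 34 differences were positive, with a median of 0.33 (0.29 without high smoke replicates 1, 3 and 7). Irf1, a transcription factor induced by interferon that was not in that list, ran from 994 to 1313 (median 1123) in low smoke and from 1283 to 1745 (median 1514) in high smoke. It exceeded the low smoke range in 6 of 7 high smoke rats (log2 difference 0.40 [0.35], SE 0.07, limma adjusted p = 0.0193). Usp18, which removes the ubiquitin-like tag ISG15, ran from 107 to 359 (median 161) in low smoke and from 209 to 516 (median 336) in high smoke, and only 2 of 7 high smoke rats exceeded the low smoke range. Its air mean of 285 ± 106 (SD) lay between the means of high smoke, 336, and low smoke, 196. Isg15 itself averaged 86.9, 47.2 and 66.5 in high smoke, low smoke and air, and Rtp4, another interferon-induced gene, 474, 276 and 346. Their differences between the smoke groups were 0.84 [0.63] and 0.78 [0.66] (limma adjusted p = 0.0447 and 0.0342). Low smoke thus had the lowest mean of the 3 groups for Usp18, Isg15 and Rtp4, and differences from air were not tested here. Ifit1bl, an Ifit family relative that was also outside the list, rose by 1.04 [0.44], with high smoke values from 195 to 976 (median 249.9) and low smoke values from 99.5 to 218 (median 173). Ifi27 (0.55 [0.77]) and Rsad2 (0.52 [0.52]), which makes an antiviral nucleotide, also rose, and are named outside the rule after their values were seen. In air they averaged 451 and 528, above their low smoke means of 367 and 384. Irf1 and Ifit1bl averaged 1095 and 154 in air, below their low smoke means of 1135 and 167. Averaged over the interferon list, air libraries stood 0.30 above the low smoke mean and high smoke libraries 0.42.

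Promoters of 6 of these genes are shown because a short motif was frequent in the promoters of their lists. All 6 genes rose and carry the motif marked, so they are not a sample of their lists. Each line gives 180 bases before the gene start, 5′ to 3′ on the gene's strand, from RefSeq on build GRCr8, whereas gene coordinates elsewhere are rn6. Capitals mark GAAA, any 2 bases and GAAA again (or the reverse complement, TTTC, any 2 bases and TTTC), the core of the interferon-stimulated element, in the first 4, and ATTGG (or CCAAT), the box bound by NF-Y, in the last 2. Ifi27 lies at chr6:128355132-128355311 (plus strand), Rsad2 at chr6:48788121-48788300 (minus strand), B2m at chr3:129549150-129549329 (plus strand), Tapbp at chr20:4967878-4968057 (minus strand), RT1-Bb at chr20:4604119-4604298 (minus strand) and RT1-Db1 at chr20:4560163-4560342 (minus strand).
Ifi27: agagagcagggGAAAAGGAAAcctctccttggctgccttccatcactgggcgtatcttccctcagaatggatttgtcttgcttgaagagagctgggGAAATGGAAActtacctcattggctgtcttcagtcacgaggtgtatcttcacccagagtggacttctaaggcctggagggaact
Rsad2: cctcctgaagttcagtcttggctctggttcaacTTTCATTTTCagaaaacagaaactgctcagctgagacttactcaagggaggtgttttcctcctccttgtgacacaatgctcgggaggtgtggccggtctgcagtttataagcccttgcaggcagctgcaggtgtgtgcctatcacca
B2m: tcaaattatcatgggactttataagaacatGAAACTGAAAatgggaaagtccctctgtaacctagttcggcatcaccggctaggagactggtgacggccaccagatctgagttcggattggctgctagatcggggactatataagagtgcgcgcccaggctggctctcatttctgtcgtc
Tapbp: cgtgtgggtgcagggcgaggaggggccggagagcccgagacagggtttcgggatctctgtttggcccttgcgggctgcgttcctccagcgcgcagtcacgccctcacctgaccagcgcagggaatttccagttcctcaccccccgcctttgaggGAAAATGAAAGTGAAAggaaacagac
RT1-Bb: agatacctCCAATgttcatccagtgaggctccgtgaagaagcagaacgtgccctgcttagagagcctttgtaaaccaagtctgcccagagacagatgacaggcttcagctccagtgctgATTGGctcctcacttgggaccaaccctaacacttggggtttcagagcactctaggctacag
RT1-Db1: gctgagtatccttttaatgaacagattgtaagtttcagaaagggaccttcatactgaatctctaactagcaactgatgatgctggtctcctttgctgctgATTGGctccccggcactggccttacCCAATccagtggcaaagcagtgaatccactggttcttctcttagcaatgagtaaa

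Both motifs were searched on both strands over 250 bases before the start, with overlapping matches counted. The GAAA pair occurred in 3.41% of 33469 promoters, in 16 of 23 interferon response genes with exactly 1 promoter entry, in 7 of 16 class I genes and in 1 of 10 class II genes. ATTGG, a commoner word, occurred in 34% of all promoters, in 8 of 10 class II genes, 8 of 16 class I genes and 8 of 23 interferon response genes. Among tested genes with 1 promoter entry, 22 of 264 with the GAAA pair rose, 125 of 3393 with ATTGG, and 340 of 9596 in all. These matches describe letters in a window and show neither binding nor its part in the differences.

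Complement and macrophage genes moved in part. C1qa, a chain of the recognition molecule of the classical complement pathway made by tissue macrophages, ran from 145 to 226 (median 194) in low smoke and from 234 to 444 (median 310.1) in high smoke, with no overlap, and averaged 215 ± 77.7 in air. The rise was 1.74-fold (log2 difference 0.80 [0.61], SE 0.14, limma adjusted p = 0.0193). C1qc, its partner chain, rose by 0.54 [0.41] and Trem2, a macrophage lipid receptor, by 0.73 [0.47]. C4a, a later complement component with a near-identical copy, fell by 0.88 [-0.51] on the log2 scale. The macrophage and monocyte list as a whole had 2 of 18 members higher (11.1%, against 3.7% of all genes tested). Both were C1q chains, and the list median was 0.07 [0.06]. Its summed level ran from 54550 to 75716 in low smoke and from 63410 to 94806 in high smoke. Csf1r, which defines the lineage, averaged 2153 ± 283 in high smoke and 2077 ± 181 in low smoke (SD). Cd68, another macrophage marker, went the other way, with means of 69.1 in high smoke and 79.4 in low smoke and overlapping ranges.

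B cells also make class II molecules. All 14 B and plasma cell genes tested were positive (median 0.44, and 0.34 without high smoke replicates 1, 3 and 7), but only Cd79b, a chain of the B cell receptor complex, passed the test. Cd79b ran from 82.8 to 144 (median 125) in low smoke and from 112 to 329.8 (median 172) in high smoke (log2 difference 0.63 [0.46], limma adjusted p = 0.0479). The defining marker Cd79a averaged 90.8 ± 32.4 in high smoke against 56.4 ± 14.1 in low smoke (SD). The summed level of the 16 genes found ran from 2302 to 4375 in high smoke and from 1305 to 2932 in low smoke, and its part in the class II and interferon differences was not tested. In bulk lung, more cells of a type and more RNA per cell cannot be told apart. Ptprcap, a partner of CD45 on lymphocytes, rose by 1.18 [0.54]. Of 18 T and NK cell genes 0 were called and 1 had an unadjusted limma p below 0.05, against 7.2% and 26.3% of all genes tested. Cd247, the T cell receptor zeta chain, had a log2 difference of 0.57 [0.38] at limma adjusted p = 0.0533.

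Small nucleolar RNAs, mostly cut from introns and used as guides for modifying ribosomal RNA, held the largest rises. Of 27 tested by symbol 17 rose, 0 fell and 26 were positive, with a median of 1.09 on the log2 scale. By the files' gene type, 29 of 48 tested rows rose and 0 fell. Averaged over the list, high smoke replicates 1, 3 and 7 stood 1.95, 1.65 and 1.55 above the low smoke mean and the remaining 4 libraries of the group 0.19 to 0.99. Low smoke libraries ran from -0.60 to 0.66 and air libraries from -1.86 to 0.28. Without the 3 libraries the list median was 0.53.

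SNORD82 (rn6 chromosome 9, 93374046 to 93374118) ran from 929 to 2920.1 (median 1465) in low smoke and from 2308 to 5758 (median 4521) in high smoke, with 4 of 7 high smoke rats above the low smoke range, and averaged 642 ± 381 in air. Its rise was 2.59-fold (log2 difference 1.37 [0.95], SE 0.25, limma adjusted p = 0.0193). Snord66 averaged 5560.2 ± 2827 in high smoke, 2166 ± 965 in low smoke and 701 ± 396 in air (SD), a log2 difference of 1.25 [0.68]. Snord92, SNORD58, SNORD39, SNORD18, Snord57 and SNORD15 rose by 1.33 [0.90], 1.31 [0.74], 1.26 [0.74], 1.24 [0.70], 1.23 [0.68] and 1.19 [0.74]. U3, the small nucleolar RNA needed for the first cuts of ribosomal RNA, rose by 0.95 [0.63]. Of 21 genes for proteins of these particles and the nucleolus 0 were called, with a median of 0.08 [0.02]. Of those 21 genes 5 had an unadjusted limma p below 0.05, against 26.3% of all genes tested. Reads of a host transcript that still holds the intron cannot be told apart from the small RNA here, and some small RNA symbols stand for several loci.

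**Figure D3:**
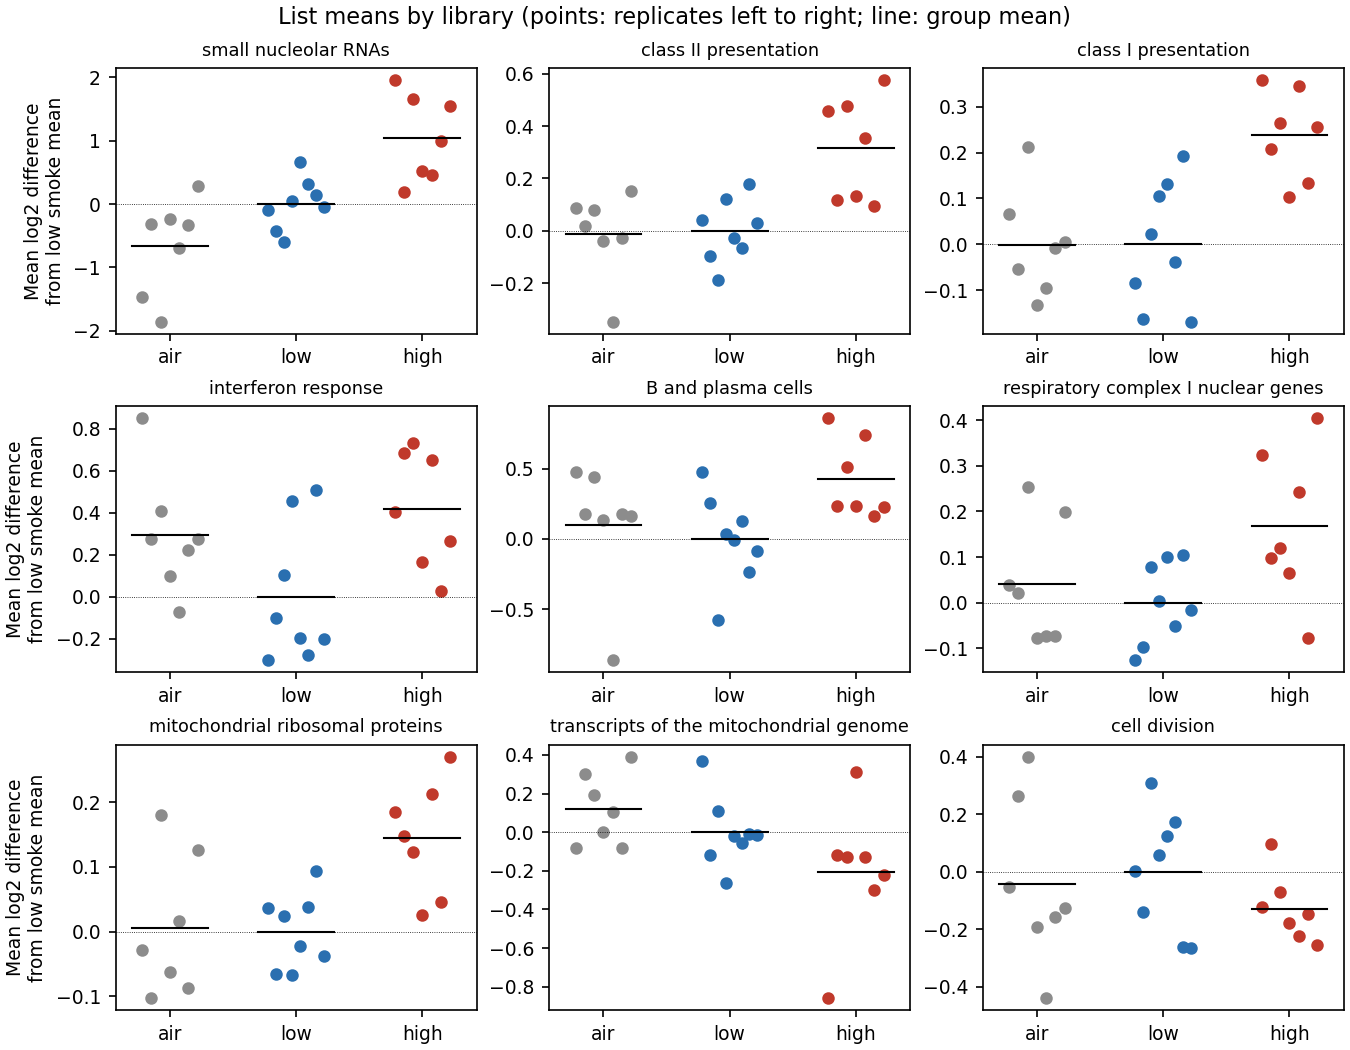
Mean over the tested members of 9 gene lists in each library, as the log2 difference from the low smoke mean (points: libraries; lines: group means). Small nucleolar RNAs reach 1.95 in high smoke, while class II, class I, interferon and B cell lists differ by 0.24 to 0.42 between the smoke group means and their points overlap.

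Ribosomal protein genes rose in part. Of 67 cytosolic members 13 rose, 1 fell and 53 were not called, with a median of 0.11 [0.09]. Rps4x ran from 1588 to 1970.4 (median 1892) in low smoke and from 2057 to 2704 (median 2349) in high smoke with no overlap (log2 difference 0.34 [0.29]), although low smoke replicate 4 lay far below its group. Rps9 rose by 0.89 [0.45], with high smoke values from 841 to 2345 (median 1359). Ribosomal proteins have many processed copies, so reads may be divided between copies. The Rps4x entry spans 973 bases of rn6 chromosome 4, and whether it is such a copy was not tested. In the mitochondrial ribosome 7 of 68 members rose and 0 fell (median 0.15 [0.09]). The share that rose was 10.3%, against 3.7% of all genes tested and 7.13% of the shortest span class. Mrps11 rose by 0.64 [0.38] and Mrpl32 by 0.52 [0.33], the latter with low smoke replicate 2 far below its group.

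Nuclear genes of the respiratory chain rose in part: 4 of 29 in complex I and 7 of 41 in complexes II to V, with 0 lower in either and medians of 0.19 [0.10] and 0.12 [0.10]. Those were 13.8% and 17.1% of members, against 3.7% of all genes tested and 7.13% of the shortest span class. Uqcrh, the hinge protein of complex III, ran from 202 to 256 (median 237) in low smoke and from 274 to 417 (median 347) in high smoke, with no overlap, and averaged 225 ± 24.4 in air. The log2 difference was 0.54 [0.37] (SE 0.09, limma adjusted p = 0.0193). Uqcrc2, a core protein of the same complex, rose by 0.45 [0.26], Ndufb8 and Ndufa2 of complex I by 0.64 [0.32] and 0.56 [0.33], and Atp5f1a, the alpha subunit of ATP synthase, by 0.34 [0.20]. Ndufv2, which holds an iron-sulfur cluster of complex I, did not overlap between groups (138 to 167 in low smoke against 175 to 248 in high smoke).

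Of 13 transcripts of the mitochondrial genome 0 rose and 1 fell, and 10 differences were negative (median -0.20 [-0.04]). Among all genes tested 3.7% rose, 3.49% fell and 50.3% of differences were positive. The median of their summed level was instead the higher in high smoke, at 134699 (79204 to 156082) against 128635 in low smoke (103838 to 149516), and the groups overlapped. Mt-atp6, which encodes the proton channel subunit of ATP synthase, ran from 3682 to 9222 (median 6747) in low smoke and from 1678 to 6683 (median 4162) in high smoke, and fell by 0.78 [-0.35] on the log2 scale (limma adjusted p = 0.0474). Low smoke replicate 4 lay far below its group for this gene.

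Enzymes of the citric acid cycle had 3 of 22 members higher (13.6%, against 3.7% of all genes tested) and a median of 0.02 [0.07]. Mdh1, the cytosolic malate dehydrogenase, ran from 3377 to 3839 (median 3605) in low smoke and from 3875 to 6969.8 (median 4409.7) in high smoke with no overlap (log2 difference 0.45 [0.19]). Fh, fumarase, rose by 0.52 [0.29], Mdh2, the mitochondrial malate dehydrogenase, by 0.26 [0.27], and Got2, which exchanges amino groups between aspartate and glutamate in mitochondria, by 0.38 [0.19]. Acot8, a peroxisomal thioesterase that releases fatty acids from coenzyme A, was the second largest rise under the naming rule among genes that are not small RNAs. It ran from 228 to 427 (median 319) in low smoke and from 504 to 1261 (median 557) in high smoke, with no overlap (2.09-fold, log2 difference 1.06 [0.69], limma adjusted p = 0.0193). Neither glycolysis (0 of 20) nor hypoxia targets (0 of 24) had a called member. In each list 5 members had an unadjusted limma p below 0.05. Over all genes tested 7.2% were called and 26.3% had such a p.

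**Figure D4:**
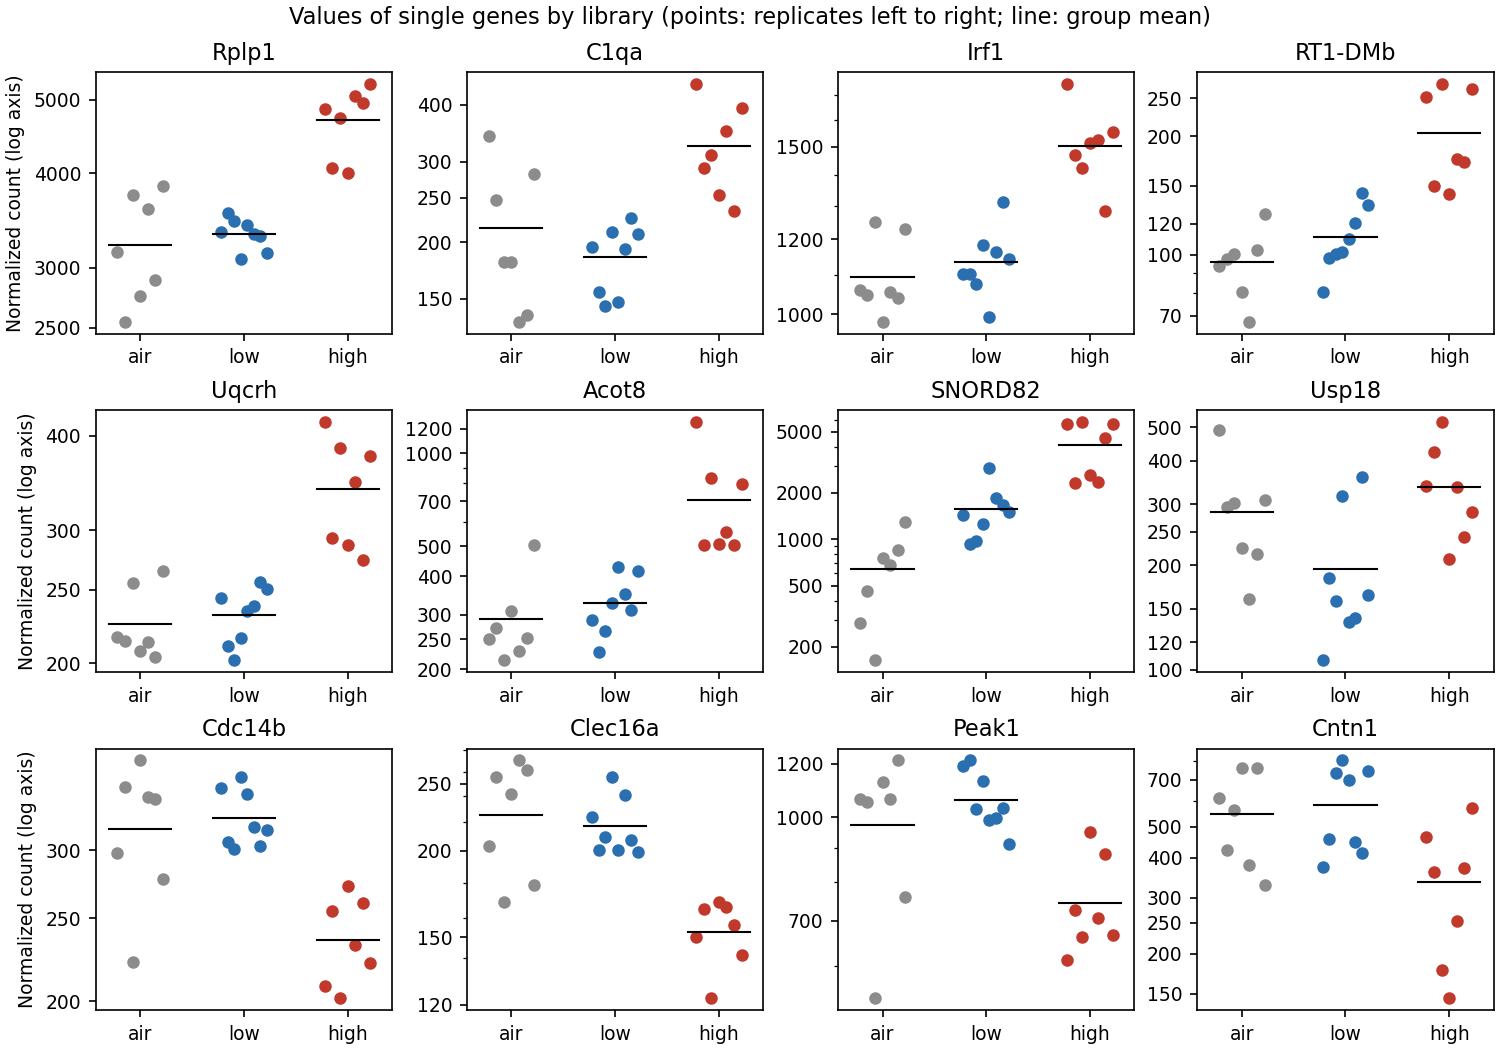
Normalized counts (log axes) of 12 genes in each air, low smoke and high smoke library, with group means as lines. Rplp1, C1qa, Uqcrh and Acot8 do not overlap between the smoke groups on the high side, nor Cdc14b and Clec16a on the low side, while Usp18, SNORD82 and Cntn1 do overlap.

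Defences against oxidants changed in single genes. Of 23 antioxidant enzymes 3 rose (13%, against 3.7% of all genes tested), 0 fell and the median was 0.17 [0.11]. Gpx4, the peroxidase that clears lipid hydroperoxides from membranes, ran from 522 to 907 (median 652) in low smoke and from 739.9 to 1165 (median 876) in high smoke and averaged 498 ± 90.8 in air. Only 3 of 7 high smoke rats exceeded the low smoke range (log2 difference 0.45 [0.29], limma adjusted p = 0.0319). Cat, catalase, averaged 2820.3 ± 663 in high smoke, 2015 ± 244 in low smoke and 1692 ± 205 in air (SD), and its log2 difference was 0.46 [0.21]. Txnrd2, the thioredoxin reductase of mitochondria, rose by 0.47 [0.30]. Blvra, which turns biliverdin from haem breakdown into bilirubin, ran from 267 to 324 (median 279) in low smoke and from 323 to 491 (median 434) in high smoke (log2 difference 0.50 [0.38], limma adjusted p = 0.0193).

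NRF2 targets had 3 of 28 members higher (10.7%, against 3.7% of all genes tested), 1 lower and a median of 0.11 [0.05]. Gsta1, a glutathione transferase with close relatives, ran from 553 to 801 (median 659) in low smoke and from 849.7 to 1415 (median 945) in high smoke, with no overlap (1.57-fold, log2 difference 0.65 [0.40], limma adjusted p = 0.0193). Osgin1, an oxidant-induced growth inhibitor, rose by 0.80 [0.64], Ephx1, the epoxide hydrolase, by 0.36 [0.32], and Gstk1, a mitochondrial and peroxisomal glutathione transferase, by 0.84 [0.66]. The usual sentinels did not pass. Nqo1, Gclc, Gclm and Hmox1 had log2 differences of 0.21 [0.18], 0.09 [0.05], 0.10 [0.01] and 0.15 [0.22] (limma adjusted p = 0.245, 0.486, 0.516 and 0.59).

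The list of the aryl hydrocarbon receptor and its targets, which aromatic hydrocarbons are known to induce, had 0 of 11 members called by limma. An unadjusted limma p below 0.05 was found for 3 of the 11, against 26.3% of all genes tested. The median was 0.02 [-0.02]. Cyp1a1, the best known target of the receptor, ran from 1.91 to 68.7 (median 20.6) in low smoke. It ran from 3.82 to 31.8 (median 11.9) in high smoke and averaged 9.27 ± 7.28 in air (SD). The high smoke values lay inside the low smoke range, and the log2 difference was -0.72 [-0.89] (SE 0.57, limma adjusted p = 0.44). Cyp1b1 and Tiparp differed by -0.03 [-0.04] and 0.02 [-0.02], both of which changed sign under other settings, and high smoke replicate 5 lay far below its group for Tiparp. S100a6, a calcium-binding protein, averaged 222960.0 ± 67824, 154493 ± 44417 and 95278 ± 34678 in high smoke, low smoke and air (SD), and its log2 difference of 0.52 [0.23] between the smoke groups had a limma adjusted p of 0.114.

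The acute inflammation, neutrophil and cell division lists had 0 members called by limma, and 3, 1 and 4 members with an unadjusted p below 0.05. Over all genes tested 7.2% were called and 26.3% had such a p. Of 20 acute inflammation genes 17 were positive (median 0.16 [0.06]), with the chemokine Ccl3 the nearest to the threshold (log2 difference 0.56 [0.33], limma adjusted p = 0.0666). Neutrophil genes had 0 of 11 called and a median of 0.10 [-0.06]. Their defining markers S100a8, S100a9 and Cxcr2 averaged 4.37, 58.6 and 21.1 in high smoke and 7.14, 53.2 and 25.9 in low smoke. Cell division genes were negative in 20 of 26 (median -0.12, and -0.11 without high smoke replicates 1, 3 and 7), with 0 called and Mcm6, part of the replication helicase, at -0.27 [-0.28] (limma adjusted p = 0.115).

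Cholesterol genes held 3 of 26 members lower and 0 higher, with a median of 0.00 [-0.05]. Among all genes tested 3.49% were lower and 3.7% higher. Hsd17b7, an enzyme of late cholesterol synthesis, ran from 86.7 to 133 (median 113) in low smoke and from 42.5 to 98.8 (median 65.8) in high smoke. It fell by 0.71 [-0.67] on the log2 scale (limma adjusted p = 0.025), with 5 of 7 high smoke rats below the low smoke range. Insig1, which holds back the sterol sensor, fell by 0.34 [-0.24], and Stard4, a cytosolic sterol carrier, by 0.33 [-0.20].

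Set against the 3.7% of all tested genes that rose, the share of members that rose was 63% for small nucleolar RNAs, 46.2% for class II, 31.6% for class I, 23.5% for smooth muscle and pericytes, 20% for surfactant proteins and their processing, 19.4% for cytosolic ribosomal proteins and 17.6% for the interferon response. The lists were chosen with earlier results known, so these shares are descriptions. Calls also followed span, and 7.13% of the shortest span class of protein-coding genes (up to 8.79 kb) rose. Median spans were 0.086 kb for small nucleolar RNAs, 9.37 for class II, 7.45 for class I and 2.69 for cytosolic ribosomal proteins. They were 24.7 kb for smooth muscle and pericytes, 19.6 for surfactant proteins and 13.3 for the interferon response. The part of span in these shares was not tested.

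**Figure D5:**
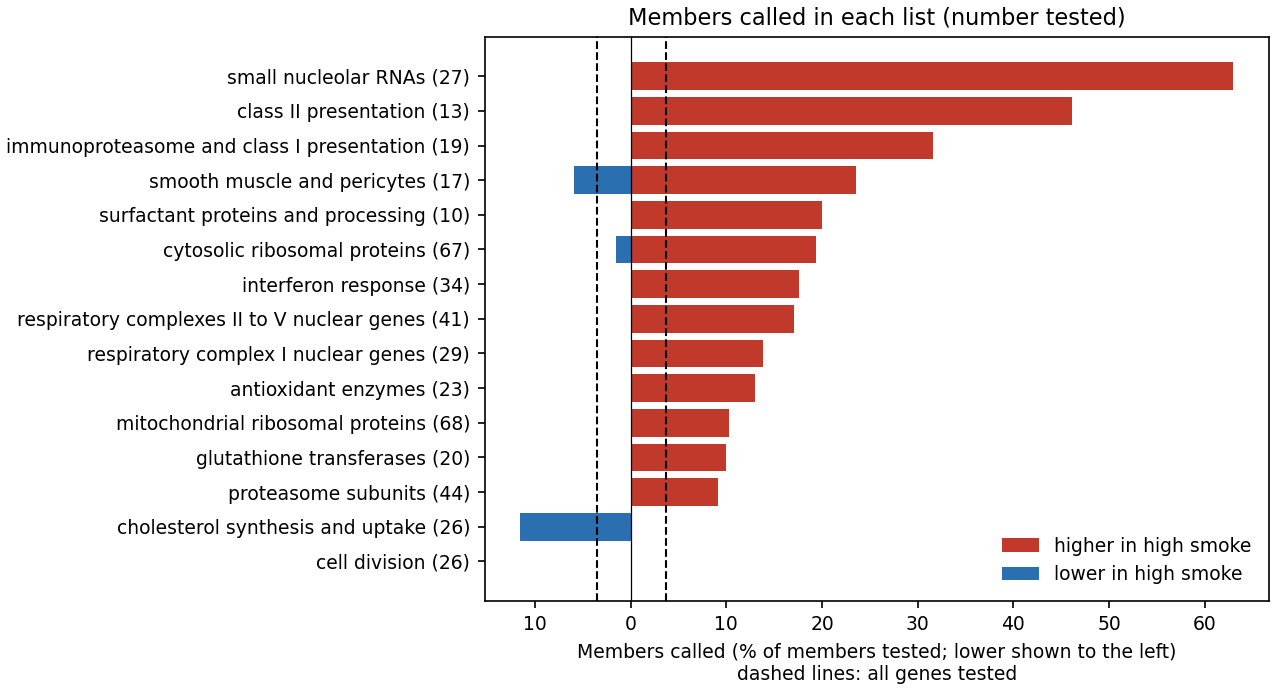
Percentage of tested members called higher (right) or lower (left) in high smoke, for 15 gene lists with the number tested in brackets. Dashed lines mark 3.7% higher and 3.49% lower over all 14398 genes. The small nucleolar RNA and class II lists lie farthest right of the background, and cholesterol genes have calls only on the lower side.

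Among genes of lung structure, Dcn, the collagen-binding proteoglycan decorin of fibroblasts, ran from 3434 to 4828 (median 4167) in low smoke and from 4779 to 8067 (median 6463) in high smoke. It exceeded the low smoke range in 6 of 7 rats (1.51-fold, log2 difference 0.60 [0.50], limma adjusted p = 0.0193). The fibroblast list had 1 higher, 1 lower (Npnt, -0.42 [-0.19]) and a median of -0.03 [-0.07]. Of 40 collagens and laminins 0 rose and 2 fell, Col6a6 by 0.38 [-0.28] and Lama4, for which low smoke replicate 2 lay far above its group, by 0.23 [-0.24]. Among all genes tested 3.49% fell, as did 7.8% of the longest span class (53.7 kb or more). The median span of the collagen and laminin list was 78.3 kb. Neither Col6a6 nor Lama4 passed with the span trend removed. Smooth muscle and pericyte genes had 4 higher and 1 lower of 17, with 9 differences positive, 8 negative and a median of 0.00 [0.08]. Higd1b, a pericyte gene, rose by 0.78 [0.67] and Tagln, a contractile protein of smooth muscle, by 0.47 [0.24], while Rgs5, another pericyte gene, fell by 0.38 [-0.26].

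Epithelial and endothelial markers moved singly. Napsa, the aspartic protease that processes surfactant protein B, rose by 0.62 [0.30] and Ctsh, a cathepsin of the same pathway, by 0.47 [0.17]. Hopx of alveolar type 1 cells rose by 0.29 [0.22], Tppp3 of ciliated cells by 0.42 [0.32], Krt7 of simple epithelium by 0.35 [0.26] and Cldn5, the tight junction protein of endothelium, by 0.46 [0.40]. Tjp1, the scaffold under tight junctions, fell by 0.20 [-0.16]. Each of these lists had 1 or 2 members higher, against 3.7% of all genes tested, and a median between -0.09 and 0.15. Positive and negative differences numbered 7 and 8 for alveolar type 1, 8 and 14 for ciliated and 11 and 10 for endothelial genes. They numbered 7 and 3 for surfactant, 9 and 5 for alveolar type 2 and 10 and 5 for simple epithelial genes. Of type 2 markers, Abca3 averaged 5818 in high and 6385 in low smoke, Sftpb 11774 and 11252, and Lamp3 9281 and 7980. The endothelial markers Cdh5 and Kdr averaged 7342 and 9264 in high smoke, against 8829 and 10060 in low smoke. Of type 1 markers, Rtkn2 averaged 3538 in high and 4067 in low smoke, and Ager 16822 and 14285. Scgb3a2, a secretoglobin of airway cells, differed by 0.46 [0.29] (limma adjusted p = 0.054), with high smoke replicate 4 far below its group.

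The falls of smallest p were those of Cdc14b, Clec16a and Peak1. Cdc14b, a phosphatase, ran from 300.4 to 365 (median 318) in low smoke and from 202 to 272 (median 233) in high smoke with no overlap, and averaged 318 ± 54.8 in air (SD). It fell by 0.47 [-0.35] log2 units (SE 0.08, limma adjusted p = 0.0193). Clec16a, an adaptor of endosome and mitochondrial turnover, ran from 199 to 256 (median 208) in low smoke and from 123 to 169 (median 156) in high smoke, again with no overlap (log2 difference -0.51 [-0.40]). Peak1, a pseudokinase of the cytoskeleton, ran from 912 to 1214 (median 1030.2) in low smoke and from 612 to 948 (median 707) in high smoke, with 6 of 7 rats below the low smoke range. Clock, the circadian transcription factor, ran from 1717 to 2382 (median 1885) in low smoke and from 1433 to 1706 (median 1567) in high smoke, with no overlap. It fell by 0.32 [-0.26], the only call among 18 clock genes, against 7.2% called among all genes tested.

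By size the largest fall under the naming rule was that of Cntn1, a neuronal and glial adhesion protein, which ran from 372 to 804 (median 578) in low smoke and from 145 to 571 (median 359.7) in high smoke. It fell by 0.89 [-1.08] on the log2 scale (limma adjusted p = 0.0463), and was larger without the 3 libraries. Gpr158, an orphan receptor, fell by 0.82 [-0.57], Wwtr1, the TAZ coactivator of the Hippo pathway, by 0.78 [-0.37], Itga2, the collagen-binding integrin chain, by 0.75 [-0.65], Ghitm, a protein of the mitochondrial inner membrane, by 0.74 [-0.40], and Mob3b, a kinase regulator, by 0.72 [-0.42]. Fam183a fell by 0.78 [-0.56], with high smoke replicate 2 far above its group. Cntn1 spans 186194 bases, Cdc14b 93809 and Clec16a 187068, all in the longest of the 4 span classes.

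Markers of tissue at the edge of the lung varied between rats of both groups. The 8 tested genes of the cardiac muscle that sheathes pulmonary veins were all positive (median 0.88 [0.71]). Of them 0 were called by limma and 0 had an unadjusted p below 0.05, against 7.2% and 26.3% of all genes tested. Their mean per library ran from -1.36 to 2.69 in high smoke and from -1.51 to 2.72 in low smoke, and Tnni3, cardiac troponin I, differed by 0.99 [0.80] with limma adjusted p = 0.191. The summed level of 12 red cell genes ran from 7913 to 15530 in high smoke and from 5185 to 10043 in low smoke. Within it Hbb, a beta globin, averaged 6913 in high smoke and 4629.6 in low smoke. Of the 10 members tested 1 rose, 5 were positive and 5 negative (median 0.02 [0.10]), and Alas2, which starts haem synthesis in red cells, averaged 143 in high smoke and 148 in low smoke. Hba-a2, an alpha globin with a near-identical copy, rose by 0.51 [0.53]. The part of the amount of blood or of vein wall in other differences was not tested.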

How the data were processed

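Lung RNA of male rats was sequenced, from 1 µg of RNA (integrity number 9.0 or more) per PrepX library on an Illumina NextSeq, per the labels' protocols. Per the submitters' processing notes, STAR 2.7.3a, Partek, DESeq2 and the rat build rn6 were used. Which tool counted, the annotation and the use of strand were not given in the sources used here. The authors deposited 1 table of 19249 genes whose unit is signal, that is gene counts divided by a library factor. Of values under 200 reads, 80.7% to 82.8% lay within 0.02 reads of a whole number, so whole reads were not recovered and no count model was run. At these depths genes with few reads have the largest counting error, for which no interval was computed.

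The table was analysed in R 4.3.3 with limma 3.58.1 (trend on, robust off) on log2(value + 1) over the 7 high smoke and 8 low smoke libraries, for genes with a mean of at least 10. Tests were two-sided, with Benjamini-Hochberg adjustment over all 14398 genes tested. The scripts were tested on simulated data. The 73 gene lists were matched to the table (1676 entries by symbol, 6 by RefSeq synonym, 91 unmatched) and are described by counts and medians, without a test.

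Groups, lists and the naming rule were chosen with earlier results of these data known. The rule took the 10 largest rises and 10 largest falls among called genes with a mean of at least 50 in 1 group and no clone-based symbol, the 8 largest rises and 4 largest falls among small RNAs, up to 3 called members of each list (or its member of smallest p), 10 sentinel genes and the 10 called genes of smallest p. Of these, 114 are reported, and 5 genes outside it are marked. Alternatives were other pseudocounts, level filters, scalings, variance models, a fit with air, an exact rank-sum test and leaving out each library.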

Additional observations from a re-analysis of the deposited data

Results flagged for a closer look

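In the 119 named genes each smoke group was searched for a library whose value on the log2 scale lay far from all others of its group. Of 238 such groups 8 held one, and chance alone flags about 1 in 20. In high smoke, Fam183a stood at 66.8 in replicate 2 with the next highest at 33.9, and Zmat3, a p53 target that fell by 0.60 on the log2 scale, at 16.9 in replicate 1 with the next lowest at 28.6. Scgb3a2 stood at 1007 in high smoke replicate 4 with the next lowest at 1731, and Tiparp at 331 in high smoke replicate 5 with the next lowest at 399.8. Among low smoke rats, replicate 2 held the highest value of Lama4, 1081, with the next at 902, and the lowest of Mrpl32, 78.3, with the next at 100.5. Replicate 4 held the lowest values of Mt-atp6, 3682 with the next at 6306, and of Rps4x, 1588 with the next at 1829. High smoke replicates 3 and 7 held none of these values.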

How the results depend on the processing

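The count of called genes changed by less than 1.5 times under both pseudocounts, a level filter of 50, 3 scalings, a fit with air and robust variance shrinkage. It fell from 1036 to 623 (326 higher, 297 lower) with no level filter, 438 (232, 206) with array weights, 268 (150, 118) with no intensity trend and 183 (96, 87) with the exact rank-sum test. Leaving out 1 library gave 2 to 1814 calls, 2 to 922 of them higher and 0 to 892 lower. The alternatives chosen after the data were seen gave 570 calls (327, 243) with the span trend removed and 0 (0 higher, 0 lower) without high smoke replicates 1, 3 and 7, where the 4 remaining libraries also give less precision. The fit with no level filter tests more genes and those with 1 library less have fewer samples. Yet the count was 1814 without high smoke replicate 4 and 2 without high smoke replicate 3. The cause of the change in calls was not tested for any setting. None of the 103 named genes that were called changed sign under any alternative, but each alternative reuses the libraries from which they were called. Cyp1b1 ran from -0.087 (without high smoke replicate 7) to 0.017 (without high smoke replicate 5) when 1 library was left out, and was also positive, at 0.0062 and 0.0058, without low smoke replicate 8 and without high smoke replicate 3. Tiparp ran from -0.027 (without low smoke replicate 2) to 0.066 (without high smoke replicate 5), with -0.0059 and -0.0020 without high smoke replicates 4 and 7 in turn, and was -0.024 when scaled to the same total and -0.022 without the 3 libraries. No paired analysis was possible because replicates were numbered here by order of label and carry no link between groups. For Cyp1a1, whose normalized counts ran from 1.91 to 68.7 in low smoke, both the low level and the spread between rats (SD 1.44 on the log2 scale) limit what could be detected.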

Other observations

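Gene groups of stress and of the lysosome moved in part. Square brackets again hold the log2 value without high smoke replicates 1, 3 and 7. Of 25 genes of the unfolded protein and integrated stress responses 3 rose, 1 fell and the median was 0.02 [0.03]. Those that rose were 12% of the list, against 3.7% of all genes tested. Atf4, the transcription factor at the centre of the integrated stress response, ran from 1593 to 1843 (median 1711) in low smoke and from 1907 to 2925 (median 2196) in high smoke, with no overlap (log2 difference 0.39 [0.23], limma adjusted p = 0.0215). Herpud1, which helps clear misfolded proteins, rose by 0.34 [0.26] and Sesn2, a stress sensor of amino acid supply, by 0.27 [0.12], while Edem1, another clearance factor, fell by 0.31 [-0.19]. Among 20 p53 targets Rrm2b, a ribonucleotide reductase subunit, and Sesn2 rose and Zmat3 fell. Cryab, a small heat shock protein, rose by 0.60 [0.29]. Proteasome subunits had 4 of 44 members higher (9.09%, against 3.7% of all genes tested) and 0 lower, with a median of 0.20 [0.06]. Psmd10 and Psmd6 rose by 0.53 [0.35] and 0.37 [0.19].

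Subunits and partners of the vacuolar proton pump had 3 of 25 members higher and 0 lower (median 0.09 [0.04]), with Atp6v0e1 at 0.52 [0.28]. The share higher was 12%, against 3.7% of all genes tested. In purine metabolism Pnp, which splits purine nucleosides, rose by 0.43 [0.19] and Gmps, which makes GMP, fell by 0.37 [-0.20]. Psat1, an enzyme of serine synthesis, fell by 0.37 [-0.40]. Serpina1, the main inhibitor of neutrophil elastase, ran from 144 to 251 (median 216) in low smoke and from 245 to 359 (median 294) in high smoke and averaged 195 ± 33.4 in air (SD). It exceeded the low smoke range in 6 of 7 high smoke rats (log2 difference 0.53 [0.49], limma adjusted p = 0.0272). Rarres2, the chemoattractant chemerin, rose by 0.81 [0.41] and Svbp, a partner of the enzymes that remove tyrosine from tubulin, by 0.88 [0.40]. Hp, haptoglobin, and Chia, the acidic chitinase, had log2 differences of 0.71 [0.36] and 0.63 [0.42] (limma adjusted p = 0.0548 and 0.0589), and Cybb, the phagocyte oxidase subunit, of 0.17 [0.12] (0.137 by the same test).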
